A study of Mus musculus with 19 samples.

Results

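The most superficial segment of the mouse primary somatosensory cortex (S1), library A, which held mostly layers 1 to 3, was compared with libraries B1 and B2, both from the next segment down, which held mostly layer 4. A gene was counted as higher or lower in A by a rule of selection: A lay on the same side of both B libraries, and its distance from the nearer of them exceeded the distance between B1 and B2, on the log2(FPKM + 0.1) scale. Of 24130 Ensembl genes listed in at least 1 S1 library, 12906 had a mean over A, B1 and B2 of at least 1 FPKM (fragments per kilobase of gene model, scaled to sequencing depth), and 7335 of these met the rule. The study took RNA from laminar dissections of male C57BL/6 mice aged 56 days and sequenced polyadenylated RNA from 6 adjacent S1 segments, named A to F from the surface to layer 6b. Library A pooled 8 untreated mice, the 2 litters of 4 littermates together, whereas B1 and B2 each held the 4 mice of 1 litter. A is thus a single library, and the distance between B1 and B2 is the only measure of spread between litters. The segments were cut by hand along a curved cortex, so that each may hold parts of neighbouring layers, and a further 12 samples, from dorsal and lateral cortical areas, are not analysed here.

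Layer 1 lies directly below the pia mater and holds few neurons, mostly inhibitory, among the apical dendrites of deeper cells, while layers 2 and 3 hold pyramidal cells that project within the cortex. Layer 4 of S1 is the main target of thalamic axons and is packed with small excitatory neurons that form the whisker barrels. A dissection of the uppermost segment can include the leptomeninges, the thin fibroblast membranes on the brain surface, with the arteries that run in them.

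From the ratio of deposited coverage to FPKM, the depth of A was estimated at 31.3 M mapped fragments (M stands for mega), that of B1 at 48.9 M and that of B2 at 74.9 M. The libraries also differed in fragment size, with a mean insert size of 164 nt in A, 239 nt in B1 and 193 nt in B2 as the sample labels give it. Genes of the mitochondrial genome took 21.8% of the summed FPKM in A, 7.76% in B1 and 18.2% in B2. Over the genes above the filter the median width of the deposited 95% interval was 17.7% of the FPKM in A, 14.1% in B1 and 11.5% in B2, and these intervals hold no variation between mice. Spearman's rank correlation across the 12906 genes, which are not independent replicates, was 0.949 for B1 and B2, 0.874 for A and B2, and 0.808 for A and B1.

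By the rule 2465 genes were higher in A, 19.1% of those above the filter, and 4870 were lower, 37.7%. In 2096 genes A lay between B1 and B2, and in 3475 it lay outside them but nearer than they were to each other. Examples of genes close to the limit of the rule were Nmt1, an enzyme that attaches myristate to proteins, and Ndufa3, a subunit of respiratory complex I. Nmt1 was just inside, at 186.8 FPKM in A, 42.6 in B1 and 89.2 in B2, and Ndufa3 was just outside, at 302.3, 65.1 and 140.9 FPKM. A stricter set was kept for description, with at least a 2-fold difference from the nearer B library and the interval of A apart from both B intervals. It held 923 genes higher in A, 7.15%, and 1278 lower, 9.9%. A difference of at least 2-fold from the mean of B1 and B2, without the other conditions, was met by 1569 genes higher in A, 12.2%, and by 1835 lower, 14.2%. These counts describe how the members were chosen and test nothing. A gene below 1 FPKM in A could pass the filter only through B1 or B2, so it could not count as higher. A gene below 1 FPKM in both B libraries could pass only through A, so it could not count as lower.

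The balance between higher and lower genes depended on the scale of the libraries. As deposited, the median log2 difference of A and the mean of B was -0.23 over the genes above the filter, and rescaling by the median of ratios moved it up by 0.25. Of the genes that met the rule, 33.6% were higher in A as deposited and 48.7% after this rescaling, and of the stricter set 41.9% and 67.4%. The rescaling raised A against both B libraries, so a gene of the stricter higher set could hardly leave it. Accordingly all 923 of its genes remained, and 637 of the 1278 of the stricter lower set remained. Differences below are as deposited and are best read against the median of -0.23. Counts within gene lists are best read against the 19.1% of all genes above the filter that were higher and the 37.7% that were lower. After rescaling by the median of ratios these shares were 26.7% and 28.1%. After correction for GC content they were 25.5% and 38.7%, and after correction for GC content and length 27.6% and 36.1%.

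**Figure D1:**
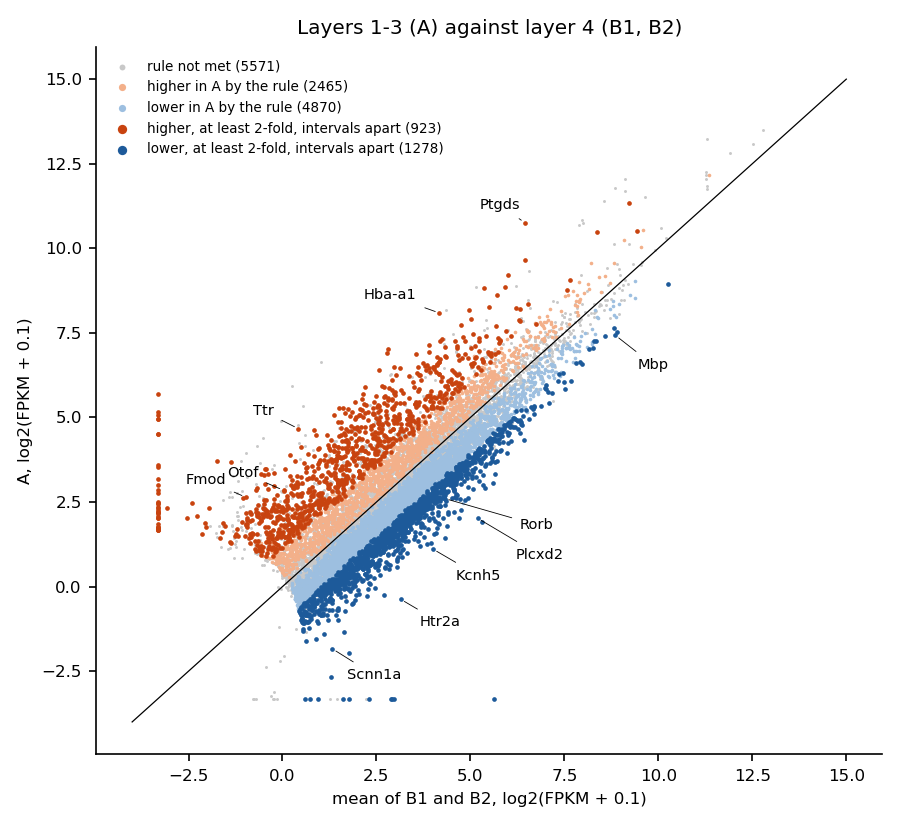
Each point is 1 of 12906 genes, with the mean of B1 and B2 on the horizontal axis and A on the vertical axis, both as log2(FPKM + 0.1). The diagonal marks equal values. Colours separate the 2465 genes higher in A, the 4870 lower in A and the 5571 that did not meet the rule, with the stricter sets of 923 and 1278 genes in the darker shades, and the points at the left and lower margins are genes listed at 0 in both B libraries or in A.

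The limma moderated test of A against B1 and B2 called 36 genes higher (0.279%) and 6 genes lower (0.0465%) at an adjusted p of at most 0.05 by the Benjamini-Hochberg method. The test has 1 residual degree of freedom, given by the pair of B libraries, and assumes that A varies as they do. For a gene listed at 0 in both B libraries that pair does not differ, so its spread came only from that shared over all genes. Whether such a gene passed thus rested on the listed values of 0. Of the 36 genes, 35 were listed at 0 in both B libraries, and all 6 lower genes were listed at 0 in A. The remaining gene was Myoc, the gene of myocilin, a secreted glycoprotein, at 4.88 FPKM in A, 0.0356 in B1 and 0.00564 in B2, with an adjusted p of 0.0257 by limma. It was the only called gene above 0 in all 3 libraries. Both of its B values were below the 0.1 FPKM added before taking logs, so its call too rested on values near 0. It passed the filter only through A. The number of limma calls depended on which genes entered the fit, with 486 higher and 953 lower among protein-coding genes alone and none without the filter on low values. At an unadjusted p of at most 0.05, limma gave 1287 genes higher and 2190 lower. The genes described below as higher or lower are so by the rule, and a limma call on a listed 0 does not rank them above the others. Of the named ones, the 8 listed at 0 in both B libraries and the 3 listed at 0 in A passed limma's adjusted threshold, with adjusted p by limma from 0.0214 to 0.0426, and the others did not. For example, the adjusted p by limma was 0.109 for Ptgds, 0.0928 for Htr2a, 0.0895 for Plcxd2 and 0.141 for Rorb.

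Markers of layer 4 neurons were lower in A, and markers of layers 2/3 were split, with some far higher in A and the best known ones similar. All 10 layer 4 markers above the filter were lower in A, with a median log2 difference of -1.90. Of these, Scnn1a and Endou were below 1 FPKM in A and passed the filter only through the B libraries. Of 14 markers of layers 2/3 above the filter, 6 were higher in A, 1 was lower and 7 did not meet the rule, with a median of 0.17. Over all genes above the filter 19.1% were higher and 37.7% lower. In bulk RNA a smaller number of cells of a type and less RNA per cell cannot be told apart.

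Scnn1a, which encodes a subunit of the epithelial sodium channel, had the largest difference among the layer 4 markers. Its level was 0.180 FPKM in A (95% interval 0.112 to 0.248), 2.87 in B1 (2.62 to 3.11) and 2.02 in B2 (1.86 to 2.19), a log2 difference of -3.17. Rorb, a nuclear receptor of layer 4 neurons needed for barrel formation, had 5.98 FPKM in A, 17.8 in B1 and 22.1 in B2. Both genes were lower in A than in either B library by several times the distance between the B libraries. Rspo1, a secreted activator of Wnt signalling, had 4.48 FPKM in A against 30.1 in B1 and 18.6 in B2, and Kcnh5, a voltage-gated potassium channel, had 2.05 against 20.9 and 12.2. Whrn, a scaffold protein, was at 3.24 FPKM in A, 22.2 in B1 and 13.4 in B2. In these 3 genes B1 exceeded B2, and A lay below both. The smallest difference in the list was that of Kcnip2, an auxiliary subunit of Kv4 potassium channels, at 46.8, 87.8 and 71.3 FPKM, with a log2 difference of -0.76. Between them lay the netrin receptor gene Unc5d (1.81, 8.62 and 5.54 FPKM in A, B1 and B2), Endou (0.523, 1.66 and 3.03), Hsd11b1, an enzyme that activates glucocorticoids (3.27, 9.82 and 11.2), and the nuclear receptor gene Rora (9.43, 18.4 and 21.7).

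Among the markers of layers 2/3, Otof, the gene of the calcium sensor otoferlin, had the largest difference. It stood at 7.09 FPKM in A (95% interval 6.32 to 7.87), 0.868 in B1 (0.773 to 0.962) and 0.975 in B2 (0.793 to 1.16), a log2 difference of 2.82. In C to F it was between 0.0337 and 0.178 FPKM, so that A stood above all 6 other libraries. Agmat, the gene of agmatinase, showed the same order, with 4.09 FPKM in A, 0.807 in B1 and 0.909 in B2, and between 0.0259 and 0.224 in C to F. Inhba, which encodes a subunit of activin, was at 19.0 FPKM in A, 8.05 in B1 and 7.16 in B2. Wfs1, whose product wolframin sits in the endoplasmic reticulum, was at 23.4, 11.2 and 9.36 FPKM. These 4 genes were in the stricter set. Otof and Agmat were below 1 FPKM in both B libraries and passed the filter only through A. The calcium-binding protein gene Calb1 (39.5, 29.7 and 33.9 FPKM) and the adhesion gene Pvrl3 (10, 8.66 and 9.04) met the rule with smaller differences.

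The homeobox genes Cux1 and Cux2, widely used as markers of layers 2 to 4, did not meet the rule. Cux1 had 33.4 FPKM in A, 38.1 in B1 and 33.8 in B2, and Cux2 had 37.9, 43.5 and 28.6 FPKM, so that A lay just below both B libraries for the first and between them for the second. Both genes were lower in each of C to F, with at most 17.2 FPKM for Cux1 and 9.17 for Cux2. The semaphorin receptor gene Plxnd1 was at 12.02 FPKM in A, 24.1 in B1 and 16.2 in B2, and the distance of A from B2 was smaller than that between the B libraries. Pou3f3, a POU transcription factor, had the lowest difference of the list (11.9 FPKM in A, 31.5 in B1, 18.5 in B2) and did not meet the rule, for the same reason. The 1 marker of layers 2/3 lower in A by the rule was Rasgrf2, an exchange factor for Ras proteins, with 39.9, 49.7 and 49.3 FPKM and a log2 difference of -0.31, and its sign turned after correction for GC content and length.

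**Figure D2:**
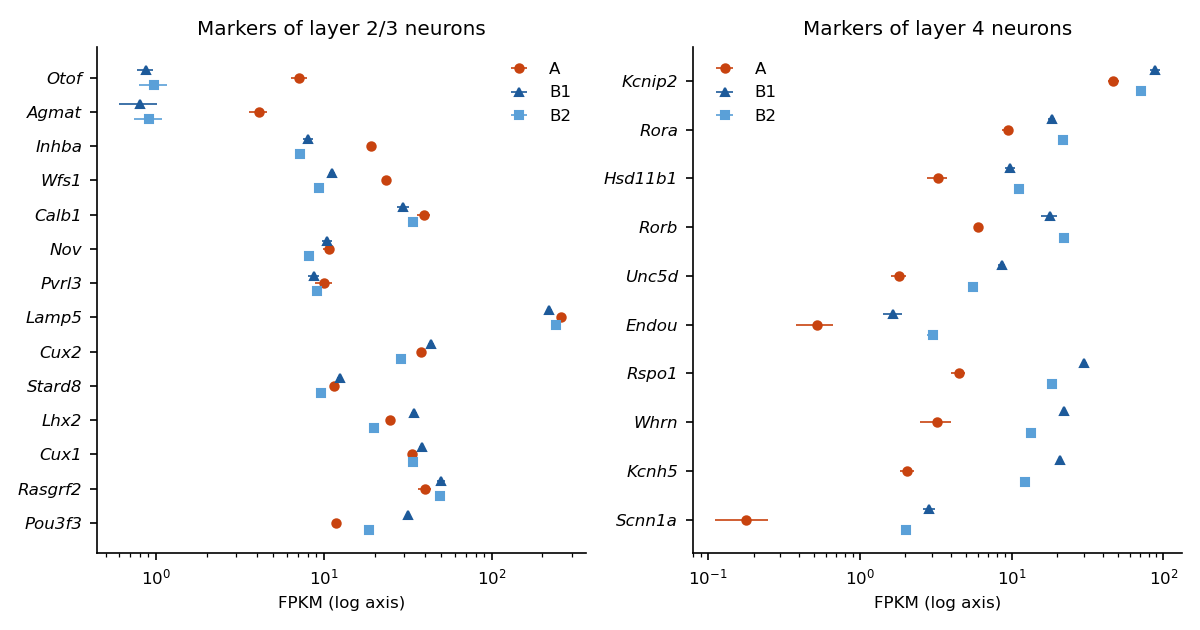
FPKM on a log axis of the 14 markers of layers 2/3 (left) and the 10 markers of layer 4 (right) that passed the filter, in A (circles), B1 (triangles) and B2 (squares), with the deposited 95% intervals as bars. In the right panel A lies left of both B libraries for every gene, from Scnn1a at 0.180 against 2.87 and 2.02 to Kcnip2 at 46.8 against 87.8 and 71.3. In the left panel Otof and Agmat lie far to the right in A, and Cux1 and Cux2 lie near the B libraries.

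Of 8 markers of layer 5 above the filter, 6 were lower in A, against 37.7% of all genes, and 2 did not meet the rule. Their median log2 difference was -1.31. Of the lower ones, Fezf2 and Npr3 were below 1 FPKM in A and passed the filter only through the B libraries. Fezf2, a transcription factor that specifies subcortical projection neurons, was at 0.980 FPKM in A, 6.06 in B1 and 3.86 in B2, and at 26.0 in C. At the other end of the list Bcl11b, another transcription factor of these neurons, had 5.99, 4.97 and 3.59 FPKM and did not meet the rule. Only 4 of 11 markers of layers 6 and 6b passed the filter, 2 of them lower and 2 higher in A, with a median of -0.18 that turned to 0.06 after rescaling by the median of ratios. Tbr1, a transcription factor of layer 6 neurons, was lower in A, with 10.5 FPKM against 41.8 in B1 and 26.7 in B2. Cplx3, a complexin found in layer 6b neurons and in some cells of layer 1, was higher in A, with 9.24 FPKM against 3.23 and 3.22, and reached 164 in F.

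The 15 named genes with the largest differences lower in A included 12 that were above 0 in all 3 libraries. Htr2a, the serotonin receptor 5-HT2A, lies on chromosome 14 at 75040647 to 75106666 of the mm9 assembly. It had 0.671 FPKM in A (95% interval 0.529 to 0.813), 9.53 in B1 (9.04 to 10.01) and 8.04 in B2 (7.69 to 8.40), a log2 difference of -3.52 against a distance of 0.24 between B1 and B2. The intervals of B1 and B2 lay far above that of A, and C to F held between 6.82 and 13.3 FPKM, so that A was the lowest of all 7 libraries. Cnih3, an auxiliary subunit of AMPA receptors (chromosome 1, 183282761 to 183390755), was at 3.64 FPKM in A, 44.0 in B1 and 35.2 in B2. Plcxd2, which encodes a protein with a phospholipase C domain (chromosome 16, 45959376 to 46010331), was at 3.96, 36.6 and 36.2 FPKM. The B libraries of Plcxd2 differed by 0.01 on the log2 scale, and A was lower than the nearer one by -3.16 on that scale. Across the deeper segments Plcxd2 went from 50.5 FPKM in segment C and 28.7 in D to 8.32 in E and 4.10 in F.

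Others of these genes encode proteins of several kinds. Ncam2, a neural cell adhesion molecule, had 2.37 FPKM in A, 16.5 in B1 and 14.4 in B2. Hs3st2 and Hs3st4 encode enzymes that add sulfate to heparan sulfate chains. They were at 2.31 and 2.20 FPKM in A, 14.9 and 12.01 in B1, and 13.7 and 12.9 in B2. Both enzymes were lowest in A among all 7 libraries, and Hs3st4 reached 93.2 FPKM in F. Kcnab1, a cytoplasmic subunit of voltage-gated potassium channels, was at 2.91 FPKM in A against 17.5 in B1 and 16.5 in B2. The zinc finger gene Zmat4 had 2.61, 19.6 and 20.5 FPKM, Dkkl1, a relative of the Wnt inhibitors of the dickkopf family, had 3.94, 24.0 and 27.3, and Susd5 had 0.295, 3.49 and 2.61. With Scnn1a and Kcnh5, these 12 genes lay at least 2.40 below the nearer B library on the log2 scale. Of them, Htr2a, Scnn1a and Susd5 were below 1 FPKM in A and passed the filter only through the B libraries, so they could not have counted as higher.

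Markers of leptomeningeal cells had the largest differences higher in A of the cell type lists apart from red blood cells. Of 10 above the filter, 9 were higher in A and none lower, against 19.1% and 37.7% of all genes, with a median log2 difference of 2.65. The exception was the transcription factor gene Foxc1 (1.47 FPKM in A, 1.18 in B1, 0.924 in B2). Fmod, Slc6a13, Islr, Col1a1, Col1a2 and Dcn passed the filter only through their value in A, so they could not have counted as lower. The summed FPKM of the 18 listed markers was dominated by Ptgds and came to 1819 in A, 86.5 in B1 and 118 in B2. Ptgds, prostaglandin D synthase, is abundant in leptomeninges and oligodendrocytes and lies on chromosome 2 at 25322229 to 25325566 of mm9. It was at 1733 FPKM in A (95% interval 1677 to 1788), 74.6 in B1 (64.7 to 84.5) and 101 in B2 (94.5 to 108), a log2 difference of 4.32. No other S1 library exceeded 269.7 FPKM for this gene. Fmod, a collagen-binding proteoglycan (chromosome 1, 135934092 to 135944839), had 6.14 FPKM in A, 0.451 in B1 and 0.368 in B2, and between 0.171 and 0.384 in C to F.

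The other leptomeningeal markers higher by the rule are listed next. The GABA transporter gene Slc6a13 had 7.27 FPKM in A, 0.574 in B1 and 0.761 in B2, and Islr had 8.03, 0.618 and 0.635. The collagen genes Col1a1 (3.52, 0.458 and 0.363) and Col1a2 (4.67, 0.750 and 0.783) and the proteoglycan gene Dcn (4.04, 0.584 and 1.11) were all in the stricter set. So were Mgp, an inhibitor of calcification (23.8, 3.22 and 6.24), and Igf2, an insulin-like growth factor (17.8, 2.77 and 3.80). Of the 8 markers under the filter, Slc47a1 was at 1.04 FPKM in A and 0 in both B libraries, and no other marker of the list was at 0 in A, B1 or B2. The proteoglycan gene Lum, also under the filter, was at 0.164 FPKM in A, 0.155 in B1 and 0.282 in B2 and did not meet the rule. The remaining markers under the filter were above both B libraries in A. How far these cells contribute to the other genes higher in A was not tested.

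Ttr, the thyroid hormone carrier transthyretin made by the choroid plexus, was among the 15 genes with the largest differences higher in A. It was at 25.4 FPKM in A (95% interval 23.5 to 27.3), 1.07 in B1 (0.716 to 1.43) and 1.42 in B2 (1.09 to 1.75). Its level went from 1.17 FPKM in segment C and 7.70 in D to 65.7 in E and 199 in F, so that the deepest segments exceeded A.

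Genes of red blood cells and of vascular smooth muscle were also higher in A. All 3 red blood cell genes above the filter met the rule, with a median log2 difference of 2.92. The alpha globin gene Hba-a1 was at 272 FPKM in A, 12.97 in B1 and 24.7 in B2, and Hba-a2 at 462, 52.6 and 70.4. The 2 are near-identical copies, so that the division of reads between them is uncertain. Alas2, the first enzyme of heme synthesis in red cells, was at 5.02 FPKM in A, 0.944 in B1 and 0.846 in B2. It passed the filter only through A. All 6 smooth muscle genes above the filter were higher in A as well, against 19.1% of all genes, with a median of 1.46. Acta2, smooth muscle actin, had 23.9 FPKM in A, 5.04 in B1 and 7.18 in B2. Tagln, transgelin, had 14.7, 4.09 and 3.22 FPKM, the largest difference of the list at 1.99. It was listed at 0 in C to F, where Acta2 and Myl9 were above 0, so these values may be failed estimates. Myh11, smooth muscle myosin, had the smallest at 0.98, with 3.57, 1.86 and 1.66 FPKM. Myl9, a myosin light chain (27.7, 8.42 and 9.20 FPKM), Mylk, the kinase of that chain (9.85, 3.45 and 4.77), and Des, the filament protein desmin (2.06, 0.659 and 0.936), lay between. Des passed the filter only through A. As listed, all 6 were lower in C to F than in A, with Acta2 at 1.28 FPKM in E and 1.56 in F. The 2 smooth muscle markers under the filter, Cnn1 and Lmod1, were at 0.322 and 1.42 FPKM in A, and no marker of the list was at 0 in A, B1 or B2. The summed FPKM of the smooth muscle list was 83.6 in A, 24.1 in B1 and 27.6 in B2, that of the red blood cell list 739 in A, 66.5 in B1 and 95.9 in B2, and their part in the other differences was not tested.

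The promoters of these genes were searched for the sequence classes known to drive them, and why the genes were higher in A was not tested. Serum response factor binds the CArG box, searched as the letters CC, 6 bases of A or T, and GG, and GATA factors of red cells bind AGATAA or TGATAA. Both strands were searched from 250 bases before to 50 bases after the RefSeq gene start. These CArG letters occurred in 535 of 32851 RefSeq promoters of the mouse, 1.63%, and the GATA letters in 6115, 18.6%. Of 8 smooth muscle genes 6 had a promoter entry and 1 of these, Myl9, held a match to the CArG letters. Boxes with a base other than A or T between CC and GG were not counted. The Acta2 window holds ccctatatgg and ccttgtttgg, which differ from the searched letters in this way, so Acta2 is not shown to lack a CArG box. Of 5 red cell genes 3 had an entry, and all 3, Alas2, Hba-a1 and Hba-a2, held the GATA letters. Hba-a1 and Hba-a2 hold the same match in near-identical windows, so they are not separate cases. A match is a description of letters and no evidence of binding, and where there was no match these letters are only missing from this window. The sequences of Myl9, Hba-a1 and Alas2 are given from RefSeq on GRCm38.p6, a later build than the mm9 of the files, as the matched members of the 2 groups. They are read 5′ to 3′ along the gene, with the match in capitals, at -161, -183 and -86 bases from the start.
Myl9, chr2:156775214-156775513, plus strand: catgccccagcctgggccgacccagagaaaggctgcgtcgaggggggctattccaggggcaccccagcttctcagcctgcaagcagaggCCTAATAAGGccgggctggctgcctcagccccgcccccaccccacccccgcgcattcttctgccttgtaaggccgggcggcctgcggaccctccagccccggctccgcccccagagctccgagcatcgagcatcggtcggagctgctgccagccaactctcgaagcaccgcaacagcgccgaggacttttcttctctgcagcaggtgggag
Hba-a1, chr11:32283422-32283721, plus strand: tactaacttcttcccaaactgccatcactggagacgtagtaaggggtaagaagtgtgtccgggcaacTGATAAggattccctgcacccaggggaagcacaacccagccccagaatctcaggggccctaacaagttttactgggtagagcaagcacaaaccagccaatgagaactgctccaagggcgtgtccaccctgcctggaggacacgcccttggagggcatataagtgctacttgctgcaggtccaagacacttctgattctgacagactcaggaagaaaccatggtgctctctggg
Alas2, chrX:150547167-150547466, plus strand: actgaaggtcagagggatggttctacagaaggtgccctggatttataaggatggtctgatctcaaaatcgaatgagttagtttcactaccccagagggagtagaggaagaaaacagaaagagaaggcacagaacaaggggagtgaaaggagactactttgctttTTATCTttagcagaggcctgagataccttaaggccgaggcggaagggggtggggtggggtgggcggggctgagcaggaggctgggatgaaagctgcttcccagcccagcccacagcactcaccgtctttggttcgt

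Of 14 endothelial and pericyte genes above the filter 2 were higher and 8 lower in A, against 19.1% and 37.7% of all genes. The median log2 difference was -0.43 and turned to 0.03 after correction for GC content and length. In that setting 5 were higher and 5 lower, against 27.6% and 36.1% of all genes. Vtn, vitronectin, made by pericytes in the brain, was the highest of the list with 63.8 FPKM in A, 21.2 in B1 and 24.4 in B2, and the tight junction gene Cldn5 had 51.0, 29.5 and 22.8. Tek, an angiopoietin receptor of endothelium, was the lowest with 1.14, 2.21 and 2.33 FPKM. Genes of the vessel wall thus lay on both sides.

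**Figure D3:**
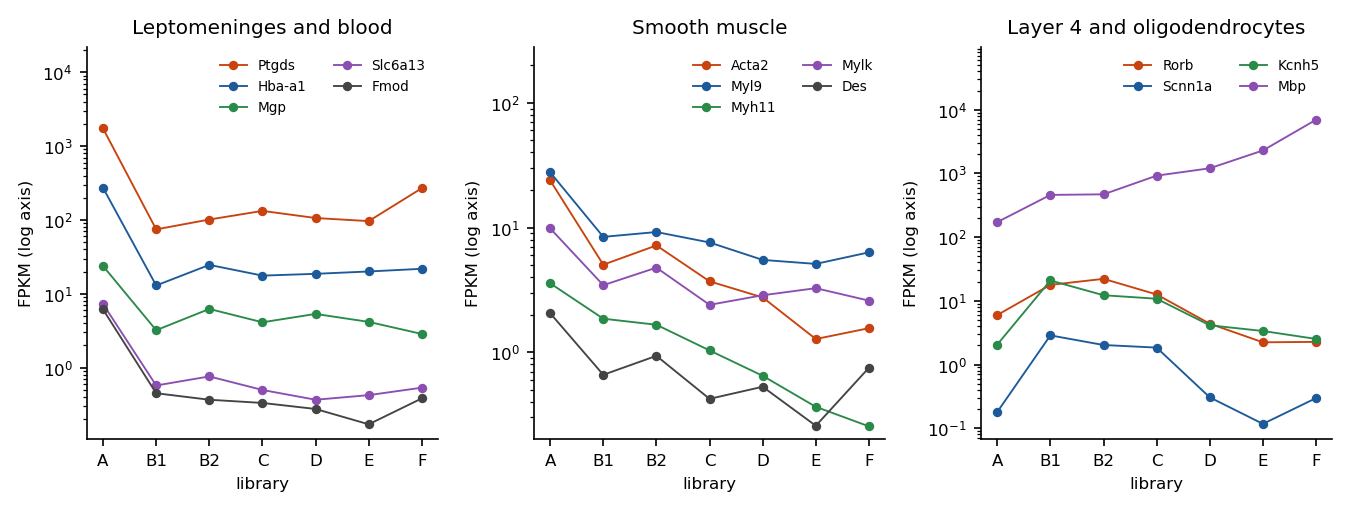
FPKM on a log axis in the 7 S1 libraries from A to F for genes of the leptomeninges and blood (left), of smooth muscle (middle) and of layer 4 and oligodendrocytes (right). Lines join the libraries of 1 gene as a guide, with B1 and B2 as litters of the same segment. Ptgds, Hba-a1, Mgp, Slc6a13 and Fmod are highest in A and so are the 5 smooth muscle genes, while Mbp increases from A to F and Rorb, Scnn1a and Kcnh5 are highest in a B library.

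Of the 15 named genes with the largest differences higher in A, 8 were listed at 0 in both B libraries. The largest was that of Gm23134, a predicted miRNA gene at 35.5 FPKM in A, which overlaps Nnat, the imprinted gene neuronatin (33.7 FPKM in A, 8.25 in B1 and 5.40 in B2). Second was Mir126a on chromosome 2, at 26446877 to 26446949 of mm9, with 12 FPKM in A. It lies within Egfl7, an endothelial gene at 35.5 FPKM in A, 21.5 in B1 and 24.1 in B2, so that reads of the host transcript may be assigned to it. The libraries were made from polyadenylated RNA and hold long fragments, and the value is not a level of the mature miRNA. Since the gene ranks near the top, the RefSeq mature sequence is given, from GRCm38.p6 chr2:26591402-26591423 on the plus strand, 22 nt long, with the seed (bases 2 to 8) in capitals.
mmu-miR-126a-3p: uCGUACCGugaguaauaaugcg

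Mrpl27, a protein of the mitochondrial ribosome that every cell uses, was listed at 11.4 FPKM in A and at 0 in B1, B2 and C to F. A value of 0 for such a gene may be a failed estimate, and no fold is given for genes listed at 0. The same holds for the dioxygenase-like gene Phyhd1 (6.74 FPKM in A), the F-box gene Fbxw9 (5.01), Gm10491 (4.46), the neuritin-like gene Nrn1l (4.42) and Acrbp, a protein of the sperm acrosome (3.06). The remaining 4 of the 15 were above 0 in at least 1 B library but below 1 FPKM in both, so they passed the filter only through A. Fam166a was at 12.8 FPKM in A, 0.0908 in B1 and 0.692 in B2 and overlaps the tubulin gene Tubb4b (33.2, 10.1 and 18.7 FPKM). The ribosomal RNA gene n-R5s202 was at 3.95 FPKM in A, 0.0148 in B1 and 0.157 in B2. Kcnmb4os1 (5.42, 0.256 and 0 FPKM) lies opposite the channel gene Kcnmb4, and the pseudogene Gm9806 (4.17, 0.208 and 0.0373) overlaps Vps13a. Without strand in the counting, reads of such overlapping pairs cannot be told apart.

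On the lower side 3 of the 15 named genes were listed at 0 in A. Gm22133, a predicted miRNA gene, was at 35.3 FPKM in B1 and 68.8 in B2 and lies within Ftl1, the ferritin light chain, which had the opposite order with 85.3 FPKM in A, 3.48 in B1 and 9.86 in B2. Gpr83, a G protein-coupled receptor, was at 7.09 FPKM in B1 and 7.47 in B2 and is also listed at 0 in F. The transcription factor gene Klf11 was at 1.85 and 1.79 FPKM and shares its locus with Gm6969 (12.3 FPKM in A, 2.70 in B1, 6.47 in B2). The values of Gm22133 and Klf11 may depend on how cufflinks divided reads within the locus, and the 0 of Gpr83 may be a failed estimate. Neither was tested.

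Of 13 genes of superficial interneurons above the filter 7 were higher and 4 lower in A, against 19.1% and 37.7% of all genes. Their median log2 difference was 0.22. Nr2f2, a transcription factor of interneurons from the caudal ganglionic eminence, was at 4.11 FPKM in A, 1.04 in B1 and 1.17 in B2. Htr3a, a serotonin-gated channel of the same cells, was at 2.09, 1.05 and 0.829 and passed the filter only through its value in A. The neuropeptide gene Npy had 211 FPKM in A against 108 and 131. At the lower end Sv2c, a synaptic vesicle protein, had 1.06, 2.54 and 1.71 FPKM. Among 11 genes of parvalbumin and somatostatin cells none was higher in A and 5 were lower, a share near the 37.7% of all genes, with a median of -0.80 that was -0.47 after correction for GC content and length. Satb1, a chromatin organiser of these cells, was at 11.8 FPKM in A, 39.3 in B1 and 44.3 in B2, whereas Pvalb (61.1, 70.2 and 118 FPKM) and Sst (176.7, 191.9 and 153.6) did not meet the rule. Tac1 had the highest difference of the list at 0.17 and did not meet the rule either.

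Of 9 genes of GABA synthesis and transport 6 were lower in A and none higher, against 37.7% and 19.1% of all genes. Their median was -0.81, and Dlx2 and Dlx5 were below 1 FPKM in A and passed the filter only through the B libraries. Gad1, the main enzyme of GABA synthesis, was at 15.9 FPKM in A (95% interval 13.3 to 18.6), 45.0 in B1 (44.0 to 46.0) and 45.3 in B2 (41.5 to 49.1). The B libraries overlapped in their intervals, and A lay below both by -1.49 on the log2 scale. Dlx6, a homeobox gene of interneurons, was the highest of the list, at 2.48, 1.60 and 2.03 FPKM, without meeting the rule. Only 3 markers of Cajal-Retzius cells, which lie in layer 1, passed the filter. Of these Calb2, the gene of calretinin, was higher in A (5.23, 4.01 and 3.36 FPKM), and Reln, the gene of reelin, and Cacna2d2, a calcium channel subunit, were lower (2.14, 4.43 and 3.46, and 2.17, 5.46 and 3.86 FPKM). The defining Cajal-Retzius marker Trp73 was at 0.204 FPKM in A, 0.0462 in B1 and 0.0196 in B2, under the filter.

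Oligodendrocyte genes were lower in A throughout as deposited. All 12 were lower by the rule, with a median log2 difference of -1.15. After rescaling by the median of ratios 7 of 12 were lower by the rule, against 28.1% of all genes, with a median of -0.90. Mbp, myelin basic protein, was at 171.8 FPKM in A, 459.7 in B1 and 469.2 in B2. Mobp had the largest difference at -1.47 and Trf, transferrin, the smallest at -0.63 (19.0, 26.5 and 33.0 FPKM). Of 8 genes of oligodendrocyte precursors 4 were lower and none was higher, against 37.7% and 19.1% of all genes. After correction for GC content and length 5 were lower and 2 higher, against 36.1% and 27.6%. One of these genes was Pdgfra, the growth factor receptor that marks these cells, at 1.00, 2.11 and 1.98 FPKM.

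Astrocyte genes went in both directions. Of 16 genes 5 were higher and 7 lower in A, against 19.1% and 37.7% of all genes. The median of -0.06 turned to 0.18 after rescaling by the median of ratios. Gfap, the intermediate filament of astrocytes at the brain surface and in white matter, was at 34.4 FPKM in A (95% interval 33.3 to 35.5), 5.81 in B1 (5.41 to 6.21) and 4.68 in B2 (4.39 to 4.97). Its level was 4.42 FPKM in C and reached 126 in F, so that it was high at both ends of the cortex. Fgfr3, a growth factor receptor, was the lowest of the list at 8.77, 28.1 and 16.3 FPKM, and the gap junction gene Gja1 had 16.6, 38.5 and 39.3. Apoe, the main lipid carrier of the brain, was higher in A at 1485, 898 and 665 FPKM. Of 10 microglial and macrophage genes 5 were higher and 2 lower, against the same shares of all genes. Their median of 0.07 turned to -0.03 when libraries were scaled without the mitochondrial genome. Aif1, the gene of Iba1, had 7.89 FPKM in A, 2.29 in B1 and 3.78 in B2, while P2ry12, a purine receptor of resting microglia, had 1.05, 3.01 and 2.92. The border macrophage markers Mrc1 and Lyve1 were at 0.109 and 0.198 FPKM in A, under the filter.

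Genes of presynaptic release were mostly lower in A. Of 19 above the filter 16 were lower in A and 1 was higher, against 37.7% and 19.1% of all genes, and 2 did not meet the rule. The median log2 difference was -0.72. Syt2, a calcium sensor of fast release, had the largest difference, with 3.54 FPKM in A, 21.2 in B1 and 15.0 in B2. Slc17a6, the vesicular glutamate transporter of thalamic and other subcortical neurons, had 1.99, 7.73 and 7.86 FPKM, and Snap25, a membrane fusion protein, had 490, 1175 and 1273. The exception was Cplx2, a complexin, at 488 FPKM in A, 291 in B1 and 267 in B2. After correction for GC content and length 12 of the 19 were lower and 1 higher, against 36.1% and 27.6% of all genes.

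Of 18 dendritic and postsynaptic mRNAs 3 were higher, 4 were lower and 11 did not meet the rule. Of all genes 19.1% were higher and 37.7% lower. The median of these mRNAs was -0.18 and turned to 0.07 after rescaling by the median of ratios. Grin2b, the 2B subunit of the NMDA receptor, was at 152.6 FPKM in A (95% interval 147.1 to 158.2), 25.0 in B1 (24.5 to 25.5) and 33.6 in B2 (33.2 to 34.1). Nrgn, the calmodulin-binding protein neurogranin, had 4621 FPKM in A, 2958 in B1 and 2330 in B2. Map2, a microtubule protein of dendrites, was the lowest of the list with 55.4, 110.0 and 100.8 FPKM. The kinase gene Camk2a, at 992, 1091 and 857 FPKM, and the scaffold gene Dlg4, at 321, 443 and 284, lay between the B libraries in A. Of 14 immediate early genes 11 did not meet the rule, and B1 was above B2 in all 14. Arc had 8.83 FPKM in A, 23.8 in B1 and 13.9 in B2. Fos (1.25, 3.41 and 2.13 FPKM) had the lowest difference and was lower by the rule, and Btg2 (3.83, 2.16 and 1.94) had the highest and was higher. The median of the list was -0.30 and turned to 0.19 without B1.

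Potassium channels were mostly lower in A. Of 39 above the filter 27 were lower and 1 was higher, against 37.7% and 19.1% of all genes, and 11 did not meet the rule. The median log2 difference was -0.93. After correction for GC content and length 26 were lower and 5 higher, against 36.1% and 27.6%. Below Kcnh5 and Kcnab1 came Kcnt2, a sodium-activated channel, with 1.37 FPKM in A, 6.86 in B1 and 6.23 in B2, and Kcna2, a channel of axons, with 9.43, 38.1 and 32.8. The related sodium-activated channel gene Kcnt1 was the exception, with 26.2 FPKM in A, 14.7 in B1 and 17.4 in B2. Of 8 genes of the perineuronal net and matrix 5 were lower and none was higher, against 37.7% and 19.1% of all genes. Their median was -1.09. Adamts4, a protease that cleaves matrix proteoglycans, was the lowest of them (1.07, 3.53 and 2.36 FPKM), and the brevican gene Bcan the highest (71.9, 77.1 and 52.5), without meeting the rule. Acan, the gene of aggrecan, the proteoglycan that defines the nets, was at 0.238 FPKM in A, 1.03 in B1 and 0.705 in B2, under the filter.

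Genes of axon guidance and adhesion had 18 of 28 members lower and 2 higher in A, against 37.7% and 19.1% of all genes, with a median log2 difference of -0.95. After correction for GC content and length 13 were lower and 4 higher, against 36.1% and 27.6% of all genes, with a median of -0.36. Unc5c, a receptor for netrin, was at 0.60 FPKM in A, 3.61 in B1 and 3.36 in B2, and the guidance ligand gene Slit2 at 1.05, 4.38 and 4.27. Of the members named here, Unc5c was below 1 FPKM in A and passed the filter only through the B libraries, so it could not have counted as higher. Of the cadherins, Cdh8 had 3.29 FPKM in A against 13.9 and 11.9, while Cdh4 had 5.16 against 2.24 and 2.04, the highest of the list. The semaphorin receptor gene Nrp2 was the other member higher in A, with 2.66, 1.38 and 1.25 FPKM.

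The neuropeptide list was divided, with 8 of 18 genes higher and 5 lower in A, against 19.1% and 37.7% of all genes. Its median was 0.39. Besides neuropeptides it holds the growth factor genes Bdnf, Igf1 and Igf2 and the neurexophilin genes Nxph1 and Nxph3. Crh, corticotropin-releasing hormone, was at 19.8 FPKM in A, 3.91 in B1 and 3.62 in B2, and Tac2, the gene of neurokinin B, at 11.4, 1.85 and 3.41. Penk, the precursor of enkephalins, had 36.2 FPKM in A against 9.75 and 10.9. Igf2 had the highest difference of the list at 2.42 and is also among the leptomeningeal markers. At the lower end Cartpt, the precursor of CART peptides, had 1.67 FPKM in A, 8.17 in B1 and 8.13 in B2, a log2 difference of -2.22 with the B libraries 0.01 apart. Pdyn, the precursor of dynorphins, had 2.65, 7.93 and 6.59 FPKM.

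Ribosomal protein genes were higher in A. Of 32 cytosolic ones 27 were higher and none lower, against 19.1% and 37.7% of all genes. The median log2 difference was 2.26, and 1.92 after correction for GC content and length. Within this list, which does not hold all such genes, Rps15 had the largest difference, with 450 FPKM in A, 25.3 in B1 and 65.8 in B2, and Rpl8 the smallest, with 350.5, 226.8 and 222.0. Such genes have many processed pseudogenes of near-identical sequence, so their values are uncertain. In 30 of the 32 genes B2 was above B1, and the median difference was 2.66 from B1 and 1.67 from B2. The 13 protein genes of the mitochondrial genome all had a positive difference from the mean of B, with a median of 1.85, and none met the rule as deposited, with B2 far above B1. After correction for GC content 6 of them were higher by the rule, and 9 after correction for GC content and length. Of all genes 25.5% and 27.6% were higher in these settings. Cytochrome oxidase subunit mt-Co1 had 9533 FPKM in A, 1361 in B1 and 4695 in B2, and mt-Nd2 had 3441, 1651 and 3774. Of 30 nuclear genes of the respiratory chain 7 were higher and 6 lower, against 19.1% and 37.7% of all genes, with a median of 0.42. After correction for GC content and length 5 were higher and 9 lower, against 27.6% and 36.1%, with a median of 0.23. They ranged from Ndufs1 of complex I (12.8, 25.5 and 31.6 FPKM) to Cox7c of cytochrome oxidase (50.2, 4.81 and 13.01).

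**Figure D4:**
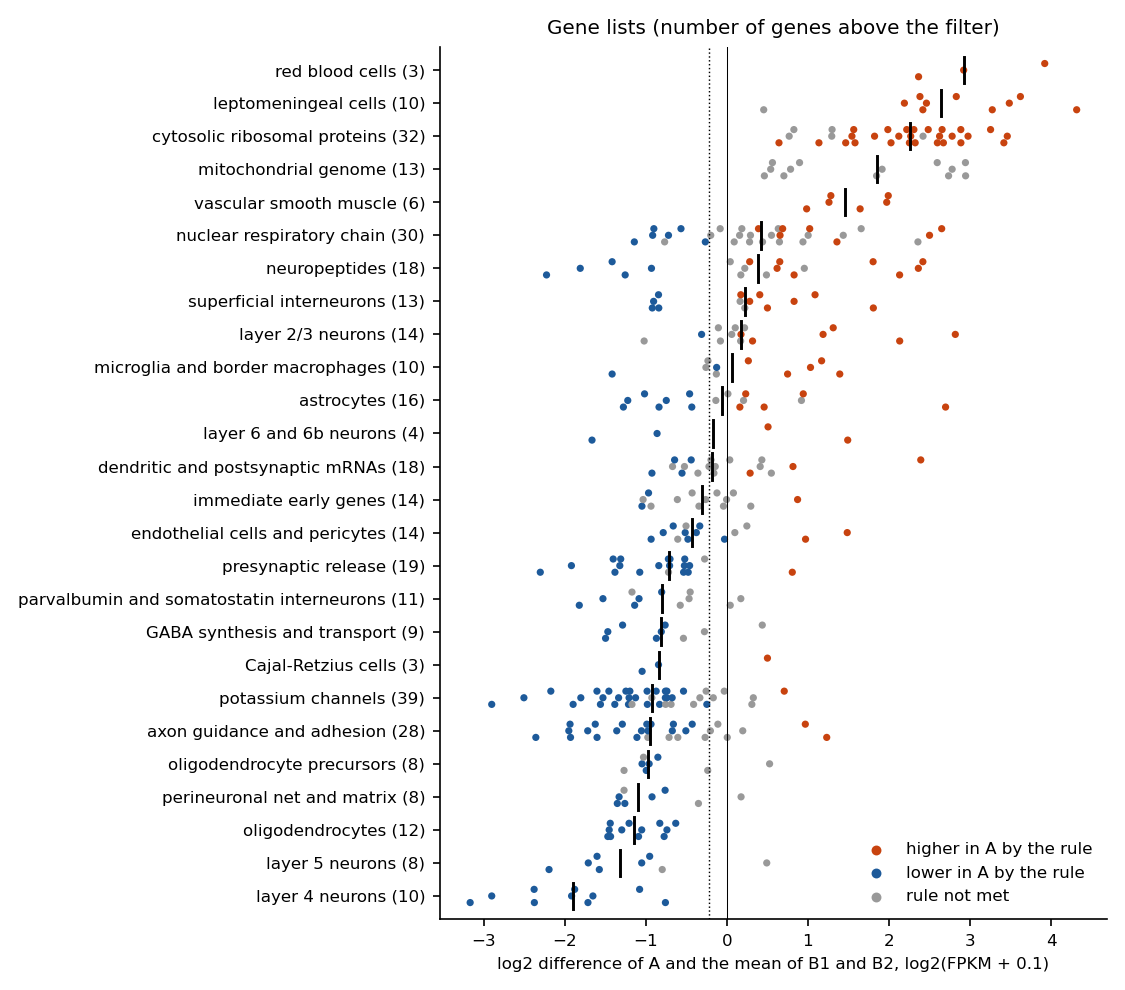
Log2 difference of A and the mean of B1 and B2 for the genes of 26 lists above the filter, whose number stands beside each list. Points are genes, coloured by the rule, black bars are the medians of the lists and the dotted line is the median of all 12906 genes at -0.23. The medians run from 2.92 for red blood cells to -1.90 for layer 4 neurons, and within lists such as astrocytes and neuropeptides the points lie on both sides of 0.

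Other settings moved the medians of several lists by more than 1.5 times without turning their sign. After correction for GC content and length the median was -0.75 for layer 5 and -0.38 for Cajal-Retzius cells, and after correction for GC content alone it was 1.06 for the mitochondrial genome. After rescaling by the median of ratios it was 0.42 for layers 2/3, 0.47 for superficial interneurons, 0.63 for neuropeptides, 0.31 for microglia and -0.47 for presynaptic release.

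The genes higher and lower in A also differed in the length and composition of their annotated transcripts. For each gene both were medians over all its annotated transcripts, which can differ from the transcripts expressed. The median transcript length was 835 nt for genes higher in A, 1917 nt for genes lower and 1324 nt for all genes above the filter, and the median GC content was 54.3%, 48.6% and 51.1%. Across the 12377 genes with annotated transcripts, Spearman's rank correlation of the log2 difference was -0.392 with this length and 0.276 with this GC content. These are descriptions across genes that share libraries. Of 10 bins of equal size by length, the one with the shortest transcripts (median 477 nt) had 41.5% of genes higher and 14.1% lower in A, and in the longest 6.46% were higher and 62% lower. With GC content the share of lower genes went from 52.5% in the lowest of 10 bins to 5.75% in the highest. The B libraries themselves differed with GC content, with a rank correlation of -0.555 for B2 minus B1, and a wider distance between them makes the rule harder to meet. After correction for smooth trends with both, 1735 of the 2327 higher genes that could be corrected remained higher and 63 turned to lower, and 3307 of 4770 lower genes remained lower and 229 turned. Fragment size also differed between the libraries, and its part in these trends was not tested.

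**Figure D5:**
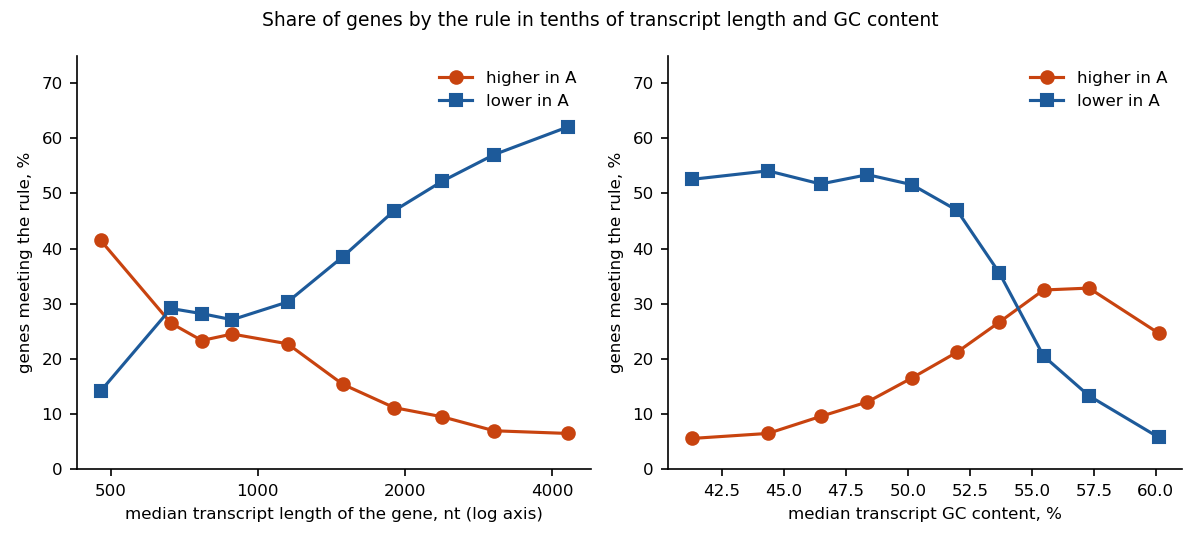
Percent of genes higher (circles) and lower (squares) in A by the rule, in 10 bins by transcript length (left) and GC content (right). Both are medians over the annotated transcripts of a gene, on a log axis in nt and in %. Each point stands at the median of its bin, which holds 1231 to 1244 genes. The share of higher genes drops from 41.5% in the shortest bin to 6.46% in the longest while that of lower genes goes from 14.1% to 62%, and lower genes are most frequent at low GC content.

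By type of gene, 1861 of 11259 protein-coding genes were higher (16.5%) and 4631 lower (41.1%). Processed pseudogenes, which are retrotransposed copies of mRNAs and share reads with them, were higher in 353 of 759 cases (46.5%) and lower in 76. Of 20 miRNA genes above the filter, 10 were higher and 1 was lower, against 19.1% and 37.7% of all genes. The limit on their meaning is given above.

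In the deeper segments, which the rule did not use, the position of the highest value was counted. Among C to F the highest FPKM was in F for 47.2% of genes higher in A, 37.1% of genes lower in A and 41.7% of all genes above the filter. Segment E held the highest value for 17.9%, 28.7% and 24.0% of them. These libraries come from the same mice as A, and no test was made.

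Isoforms were compared by a like rule, since A could hold a different form of a gene at a similar total. Among 3155 genes with at least 2 transcripts of a mean of at least 1 FPKM, 143 (4.53%) had 1 transcript at least 2-fold higher in A than in both B libraries and another at least 2-fold lower, each with intervals apart and by more than B1 and B2 differed. In the deposited column of abundance relative to the major transcript no value is below 5%, so an isoform at 0 may have been left out. In 130 of the 143 genes every opposite pair had an isoform listed at 0 in a library.

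The 6 genes with the largest smaller-side difference were all of this kind. Mtch1, a mitochondrial outer membrane protein, had a 435-nt transcript listed at 48.0 FPKM in A and at 0 in both B libraries, and an 1867-nt transcript at 13.4 FPKM in B1, 14.2 in B2 and 0 in A. The gene as a whole was at 225.2 FPKM in A, 173.3 in B1 and 132.2 in B2, so these transcripts held only a small part of it. Dlgap1, a postsynaptic scaffold, had a 2173-nt transcript at 77.3 FPKM in B1 and 26.9 in B2 that was listed at 0 in A, and a 1835-nt transcript at 10.8 in A alone. Its main form, of 5276 nt, was at 92.4 FPKM in A, 76.6 in B1 and 109 in B2. For Epn1, an endocytic adaptor, the 2565-nt transcript was at 29.3 FPKM in B1 and 45.6 in B2 and the 732-nt transcript at 46.0 in A. The gene as a whole was at 393.6 FPKM in A, 228.4 in B1 and 165.3 in B2, and its 2334-nt form at 128.6, 61.5 and 11.0. Drap1, a repressor of transcription, and Adgrb2, an adhesion receptor, each had a short transcript listed only in A, of 674 nt at 29.5 FPKM and of 849 nt at 35.1. Ptpa, an activator of protein phosphatase 2A, had an 1838-nt transcript in A at 19.4 FPKM and a 702-nt transcript in B1 and B2 at 13.4 and 9.47.

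Transcripts were matched to genes by identifier, and in mm9 165 matched ones lay outside the main locus of their gene. With these left out, all 143 genes kept opposite isoforms. Of the 13 genes with an opposite pair above 0 in all 3 libraries, 12 kept such a pair within 1 locus. In most of the 13 genes the transcript higher in A was the shorter one, and in Foxn3, Clcn2 and Srsf5 it was the longer one. Genes with shorter transcripts were also more often higher in A, and the part of that trend in these isoforms was not tested. The examples given were chosen after their values were seen. Negr1, a neuronal adhesion molecule, had a 1953-nt transcript at 46.8 FPKM in A, 13.1 in B1 and 9.56 in B2, and a 4983-nt transcript at 29.6, 61.5 and 66.3. The shorter form was 61.3% of the summed FPKM of its listed transcripts in A and 17.6% and 12.6% in the B libraries. The transcription factor gene Foxn3 had mostly a 2780-nt form in A (82.6% of the same sum) and mostly a 2611-nt form in B1 and B2 (89.0% and 75.4%). Both forms were low, at 2.36, 0.226 and 0.685 FPKM in A, B1 and B2 and at 0.496, 1.83 and 2.10. The first passed the filter only through A and the second only through the B libraries. Of the layer genes, Rorb was listed with 1 transcript of 9293 nt in A and B2 and 89.7% of its FPKM in it in B1, and Plxnd1 with 1 transcript in all 3 libraries. Kcnip2 had a 2356-nt form at 17.4 FPKM in A, 52.1 in B1 and 29.1 in B2 and a 2002-nt form at 27.8, 20.5 and 35.6, so that the B libraries themselves differed in their main form.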

How the data were processed

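Polyadenylated RNA of S1 segments A, B1 and B2 was compared, with C to F for reference. The authors aligned 50-nt paired reads to mm9 with TopHat 1.0.13 and deposited FPKM per Ensembl release 57 gene and transcript, with 95% intervals, from Cufflinks 0.8.3 (names and versions from the submitters' processing notes). The deposited coverage per gene or transcript was used only to estimate depth. Intervals cover counting and assignment error, not mice or litters.

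Values were used as log2(FPKM + 0.1), and genes with a mean over A, B1 and B2 of at least 1 FPKM were tested, so changes of low genes are understated. Symbols came from GENCODE M21 and were found for 22021 of 24130 genes. Calls of the rule are no test. The moderated test of limma 3.58.1 (R 4.3.3) had 1 residual degree of freedom. Tables and figures used Python 3.11.15, numpy 2.4.6, pandas 2.3.3, scikit-learn 1.9.0 and matplotlib 3.10.9. Lengths and GC content were medians over all GENCODE M21 transcripts of a gene, matched by gene identifier and not weighted by expression. They can therefore differ from those of the transcripts expressed. Plxnd1, for example, was given 542 nt, while its only listed transcript had 6907 nt. Corrections used these medians and splines with 6 knots.

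The members and the 26 gene lists were chosen with earlier results of these data known. Named genes were the 15 per direction farthest from the nearer B library in the stricter sets, with a symbol and a widest interval of at most 50% of the mean, then the ends and the defining members of each list, 6 isoform genes, and Cux1, Cux2, Plxnd1, Kcnip2 and Rorb. Other genes were chosen after their values were seen. Alternatives changed the scaling, pseudocount, filter, fold, intervals, libraries and genes entered. No per-sample column was without a sample.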

Additional observations from a re-analysis of the deposited data

How the results depend on the processing

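The scale, the filter and the genes entered set most counts, and the cause was not tested. With a mean of at least 0.1 FPKM, at least 5 FPKM and no filter, genes higher by the rule numbered 4036, 1468 and 5723, and genes lower numbered 2865 at 5 FPKM. In the same order, the stricter higher set held 1448, 507 and 1538 genes and genes at least 2-fold above the mean of B numbered 2699, 844 and 3015. At 5 FPKM the stricter lower set held 752 and genes at least 2-fold below the mean of B numbered 1053. At 1.5-fold the stricter sets held 1476 higher and 2921 lower, and at 4-fold 291 and 75. Among narrow intervals the stricter higher set held 487 and the 2-fold higher genes 874, and among protein-coding genes, an alternative chosen after seeing the data, 503 and 856. The stricter lower set and the 2-fold lower genes numbered 637 and 996 after median of ratios, 589 and 1056 after GC correction, 711 and 1071 with a pseudocount of 1, and 572 and 993 after correction for GC content and length, also chosen after seeing the data. Leaving out B1 or B2, 2-fold higher genes ranged from 1260 to 1883 and 2-fold lower genes from 1787 to 2151.

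The limma calls, higher and lower, were 504 and 198 after GC correction, 1 and 2 after correction for GC content and length, 8 and 3 at 5 FPKM, 20 and 10 with narrow intervals, and 486 and 953 among protein-coding genes. With limma they were 0 and 0 at 0.1 FPKM and with no filter, where 4179 and 5051 genes had an unadjusted p of at most 0.05. Genes with opposite isoforms numbered 513 at 0.1 FPKM, 95 with widened intervals, 246 at 1.5-fold and 143 with transcripts of 1 locus, chosen after seeing the data. Under the 8 alternatives that apply to single genes, 1088 values of the log2 difference were computed for 136 named genes, of which 336 moved by more than the spread of B1 and B2. Of 702 values for genes that met the rule, 680 still met it in the same direction, and 1 gene that met it changed its direction, that of Rasgrf2, at 0.14 after correction for GC content and length. No paired analysis was possible because A pools both litters while B1 and B2 hold 1 litter each.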
